A study of Mus musculus with 4 samples.

Results

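The mitochondrial genome of the mouse encodes subunits of the respiratory chain together with the rRNAs and tRNAs needed to translate them inside the organelle. The genes described here are the rows of the deposited expression table whose symbol starts with mt-, which gave 37 of the 25259 genes in the table: 13 mRNA genes, 2 rRNA genes and 22 tRNA genes. The samples were dorsal striatum of 8-week-old C57BL/6 mice, taken by laser capture microdissection from the dorsomedial part (DMS) or the dorsolateral part (DLS). The groups were Foxp2hum/hum DMS (12 libraries), wild-type DMS (11 libraries), Foxp2hum/hum DLS (12 libraries) and wild-type DLS (11 libraries). Foxp2 encodes a forkhead transcription factor, and Foxp2hum/hum mice are homozygous for an allele of it that encodes amino acids of the human protein, a germline change that is not limited to the striatum. No label names the animal a library came from. The p-values therefore measure the spread between libraries, which may be technical, and DMS and DLS libraries enter the tests as independent although some may share an animal.

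Mitochondrial DNA is transcribed from both strands as long precursors, which are cut mainly at the tRNAs that lie between the other genes. The products then differ in level through processing, polyadenylation and decay. The mRNAs encode subunits of complex I (the mt-Nd genes, NADH dehydrogenase), complex III (mt-Cytb, cytochrome b), complex IV (mt-Co1 to mt-Co3, cytochrome c oxidase) and complex V (mt-Atp6 and mt-Atp8, ATP synthase), which supply most of the ATP that neurons use. The remaining subunits of these complexes are encoded in the nucleus.

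The genes are packed with few or no bases between them, and several overlap, which limits how far reads can be assigned to 1 gene. The overlaps between mRNA genes are shown because mt-Nd5, mt-Nd6 and mt-Nd4l carry the regional differences given further on. On the plus strand of chromosome M (build NCBIM37, the same assembly as mm9), mt-Atp8 and mt-Atp6 share 43 bases within 7915 to 7981, mt-Nd4l and mt-Nd4 share 7 bases within 10155 to 10185, and mt-Nd5 and mt-Nd6 share 14 bases within 13540 to 13577. The gene mt-Nd6 is read from the minus strand, opposite to mt-Nd5. Capitals mark the bases that belong to both genes.
mt-Atp8 and mt-Atp6: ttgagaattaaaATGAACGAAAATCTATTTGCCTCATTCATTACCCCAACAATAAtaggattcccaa
mt-Nd4l and mt-Nd4: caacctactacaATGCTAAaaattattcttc
mt-Nd5 and mt-Nd6: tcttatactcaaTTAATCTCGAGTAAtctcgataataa
In the first pair the shared run opens with ATG, the start codon of mt-Atp6, and in the second with the ATG of mt-Nd4. In the third pair the shared run is the end of both genes, with TAA closing mt-Nd5 on the plus strand.

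Values in the table are reads per gene divided by a size factor per library, called normalised reads here. Whole reads were recovered from them, and libraries held 16.8 to 41.01 Mreads over all genes (1 Mread is 1000000 reads, and 1 kread below is 1000 normalised reads). The 37 genes took 15.6 to 27.4% of the reads in Foxp2hum/hum DMS (median 22.1%), 11.9 to 26.3% in wild-type DMS (median 21.5%), 20.4 to 30.7% in Foxp2hum/hum DLS (median 24.4%) and 18.2 to 29.3% in wild-type DLS (median 22.2%). All 4 ranges overlapped. Of the reads in these genes, the mRNAs took 80.4 to 93.05% per library, the rRNAs 5.58 to 18.5% and the tRNAs 0.987 to 1.58%. The libraries were enriched for mRNA, so the level of the rRNAs and tRNAs relative to the mRNAs is that of this preparation. Libraries 72 (wild-type DMS) and 70 (wild-type DLS) stood apart, with 852 and 486 kreads at Filip1l against a median of 29.8 kreads over the 46 libraries, and library 72 also had the lowest mitochondrial share (11.9%).

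Levels between genes were compared as normalised reads per kb of gene length, averaged over the 46 libraries. The genes of complex V stood highest, mt-Atp6 with 1034 and mt-Atp8 with 977 kreads per kb. The complex IV genes followed, with 680 for mt-Co3, 666 for mt-Co2 and 630 kreads per kb for mt-Co1, the catalytic subunit. The complex III gene mt-Cytb had 377 kreads per kb. The complex I genes stood below these, with 359 for mt-Nd1, 334 for mt-Nd4, 296 for mt-Nd3, 277 for mt-Nd4l, 265 for mt-Nd2, 132 for mt-Nd6 and 96.0 kreads per kb for mt-Nd5. The 2 rRNAs, mt-Rnr1 (12S) and mt-Rnr2 (16S), had 171 and 159 kreads per kb.

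Within a library, 4 steps in this order of mRNAs held in all 46 libraries: mt-Atp8 above mt-Co3, mt-Co1 above mt-Cytb, mt-Nd2 above mt-Nd6, and mt-Nd6 above mt-Nd5. The other neighbours changed places between libraries. For instance, mt-Co3 was above mt-Co2 in 24 of 46 libraries, and mt-Nd3 was above mt-Nd4l in 27 of 46. The step from mt-Co1 to mt-Cytb ran from 1.52 to 2.03-fold, and that from mt-Nd2 to mt-Nd6 from 1.49 to 2.56-fold.

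**Figure D1:**
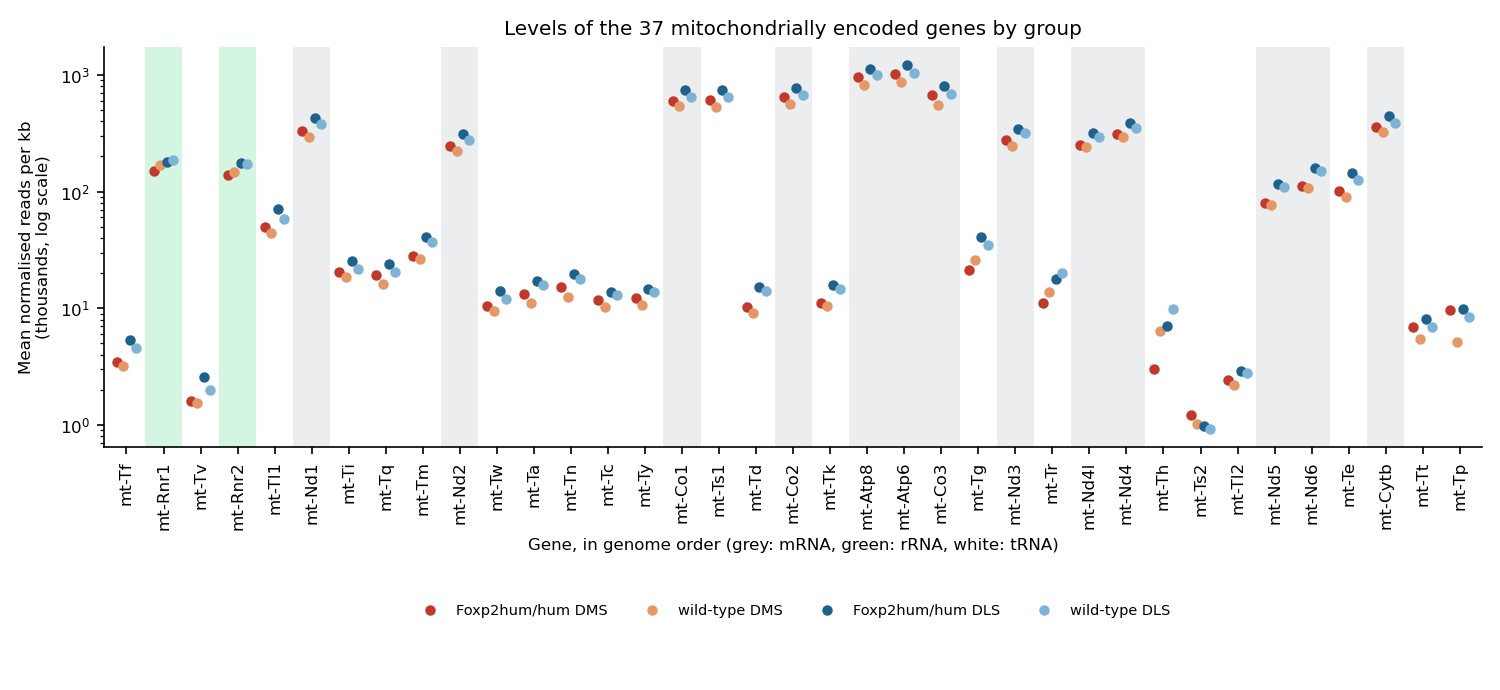
Mean level of each of the 37 genes in kreads per kb (log scale, normalised reads), in the order of the mitochondrial genome, with 1 point per group. The mRNAs on grey lie between the highest level, mt-Atp6 at 1034, and the lowest, mt-Nd5 at 96.0 kreads per kb over all libraries, and most tRNAs on white lie far lower.

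Copies of mitochondrial sequence in the nuclear genome also carry genes of the table. A BLAST search at 95% identity or more over 200 bases or more found a copy of 4654 bases on chromosome 1 (NCBIM37, 24618374 to 24623027) with 99.9% identity, which holds 11 whole mitochondrial genes, mt-Ts1 to mt-Nd4l. The pseudogene Gm10925 in it had 97.3 to 101% of the value of mt-Atp6 in each library, and Gm10222 had 93.1 to 98.1% of that of mt-Nd4l. Lengths of copies are given as lengths of the alignment with gaps counted, which can exceed the span on the chromosome. A copy of 3260 bases by this measure, on chromosome 2 (22442808 to 22446054) with 97.4% identity, lies within Myo3a, a myosin gene. Its pseudogenes Gm13340, Gm13341 and Gm13339 had medians of 32.8% of mt-Co1, 36.5% of mt-Co2 and 12.2% of mt-Nd2, and Myo3a had 53.8% of mt-Co1. Myo3a lies on the plus strand and these pseudogenes on the minus strand. Mean levels were 523 kreads for Myo3a, 319 for Gm13340, 167 for Gm13341 and 34.5 for Gm13339. Whether the same reads were counted for genes of both strands was not tested. The search also found shorter copies, at which no gene of the table lay. One of 955 bases on chromosome 13 (95.2% identity) matches 12446 to 13400 of chromosome M, within mt-Nd5. Another of 370 bases on chromosome 10 (97.8%) lies within mt-Rnr2, and 383 bases on chromosome 5 (97.9%) hold mt-Tw, mt-Ta and mt-Tn. Matches on chromosomes 6 and 12 lie outside the 37 genes. Reads that match both a mitochondrial gene and its copy cannot be told apart here, and the effect on the levels was not tested. The share of the mitochondrial genes in Foxp2hum/hum DMS averaged 24.4% with the genes at the copies left out of the total, against 22.4% with them.

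**Figure D2:**
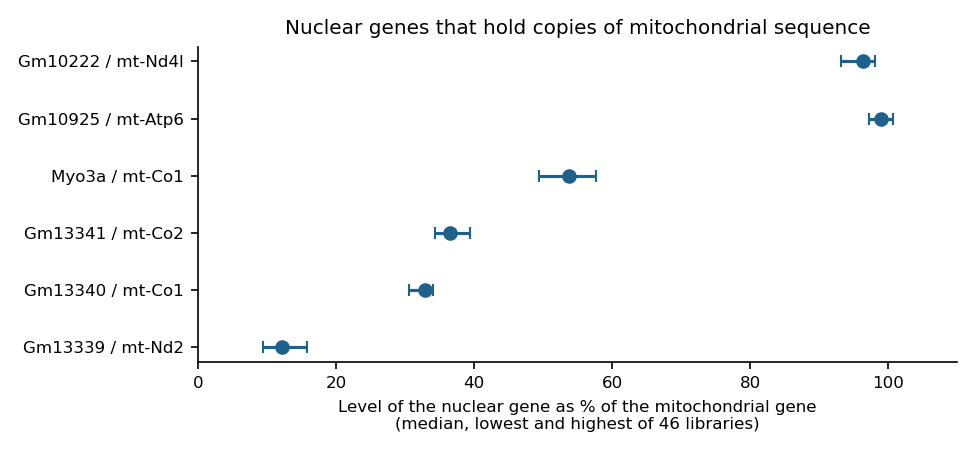
Level of each nuclear gene that holds a copy of mitochondrial sequence, as a percentage of the mitochondrial gene it matches (point: median of 46 libraries, bars: lowest and highest). Gm10925 and Gm10222 lie close to 100%, and the genes of the chromosome 2 copy lie between 9.38 and 57.6%.

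The first comparison asked how the mitochondrial genes differed between the subdivisions of the striatum, DMS against DLS, in each genotype. All 37 genes had a lower mean log2 level in DMS than in DLS in both genotypes on the deposited scale. The 13 other settings gave 36 or 37 of 37, except quantile normalisation in Foxp2hum/hum mice, with 29 of 37 (7 of 13 mRNAs). Past the test, 9 of 37 fell in DMS of Foxp2hum/hum mice (3 mRNAs and 6 tRNAs) and 6 of 37 fell in DMS of wild-type mice (2 mRNAs and 4 tRNAs), and none rose. The test was limma on log2(value + 1) over 19561 genes with Benjamini-Hochberg adjustment and a threshold of 0.05. The share of all genes tested that was lower in DMS was 8.82% in Foxp2hum/hum and 8.72% in wild-type mice, and the share that was higher was 9.33% and 8.54%. The median log2 difference of the 13 mRNAs was -0.33 in Foxp2hum/hum and -0.29 in wild-type mice, where the median over all genes was 0.02 and 0.01. In Foxp2hum/hum mice the mRNA median was -0.16 scaled to the total of all genes, -0.20 scaled to the total of the non-mitochondrial genes and -0.0094 with quantile normalisation, and in wild-type mice -0.20, -0.24 and -0.20 in the same order. Quantile normalisation gives each rank the same value in every library, which limits the differences that genes at the highest ranks can show. How far this limited the mitochondrial mRNAs was not tested. The 37 genes share precursors and libraries and are not independent of each other, so their common sign is a description.

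The largest mRNA differences were in mt-Nd5 and mt-Nd6, membrane subunits of complex I. In kreads, mt-Nd5 ran from 89.5 to 202 with a median of 148 in Foxp2hum/hum DMS, and from 147 to 258 with a median of 219 in Foxp2hum/hum DLS. It ran from 103 to 194 with a median of 136 in wild-type DMS, and from 126 to 263 with a median of 199 in wild-type DLS. The ranges overlapped, but all 12 Foxp2hum/hum DMS libraries and all 11 wild-type DMS libraries lay below the median of the DLS libraries of their genotype. By limma, mt-Nd5 fell by 0.56 ± 0.13 on the log2 scale (SE) in Foxp2hum/hum (adjusted p = 0.00133) and by 0.52 ± 0.14 in wild-type mice (adjusted p = 0.00511). With quantile normalisation mt-Nd5 lost its call in both genotypes (limma, adjusted p = 0.508 in Foxp2hum/hum and 0.402 in wild-type mice), and it kept it in the 12 other settings. The limit of quantile normalisation for genes at high ranks, given above, holds for mt-Nd5 too.

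The gene mt-Nd6, the only mRNA of the opposite strand, ran from 31.99 to 86.4 kreads with a median of 52.3 in Foxp2hum/hum DMS, and from 53.5 to 124 with a median of 79.1 in Foxp2hum/hum DLS. It ran from 37.9 to 79.2 kreads with a median of 51.1 in wild-type DMS, and from 52.3 to 109 with a median of 79.3 in wild-type DLS. Again the ranges overlapped, and 11 of 12 Foxp2hum/hum and 11 of 11 wild-type DMS libraries lay below the DLS median of their genotype. By limma, mt-Nd6 fell by 0.56 ± 0.16 (adjusted p = 0.00729) in Foxp2hum/hum and by 0.49 ± 0.16 (adjusted p = 0.0296) in wild-type mice. Without 1 library, the adjusted p for wild-type mice by limma reached 0.0633, and the gene was called in 40 of the 46 fits that left a library out, where mt-Nd5 was called in 46 of 46. It also lost its call with quantile normalisation and with Ttr as a covariate in both genotypes, and in wild-type mice when scaled to the total of the non-mitochondrial genes. No source used here says whether reads were assigned by strand, so reads in mt-Nd6 may come from RNA of either strand. The fall of mt-Nd6 is therefore not shown to be separate from that of the overlapping mt-Nd5.

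The third mRNA was mt-Nd4l, another membrane subunit of complex I. It had 44.6 to 102 kreads with a median of 75.1 in Foxp2hum/hum DMS, and 65.8 to 119 with a median of 98.2 in Foxp2hum/hum DLS. It fell by 0.37 ± 0.13 in Foxp2hum/hum mice (limma, adjusted p = 0.0402). This call of mt-Nd4l was kept in 34 of the 46 fits without 1 library and in 7 of the 13 other settings. In wild-type mice its difference was -0.29 ± 0.14 (limma, adjusted p = 0.143). The remaining complex I genes did not pass in either genotype: by log2 in Foxp2hum/hum and wild-type mice, mt-Nd1 had -0.39 and -0.35, mt-Nd2 -0.36 and -0.30, mt-Nd4 -0.34 and -0.27, and mt-Nd3 -0.31 and -0.33.

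None of the genes of the other complexes passed. In Foxp2hum/hum mice mt-Co1 averaged 914 ± 224 kreads for DMS, against 1138 ± 246 for DLS (SD over 12 libraries each). In wild-type mice it averaged 829 ± 151 for DMS, against 1004 ± 230 for DLS (SD over 11 libraries each). The log2 differences in Foxp2hum/hum and wild-type mice were -0.33 and -0.27 for mt-Co1, -0.27 and -0.25 for mt-Co2, and -0.26 and -0.26 for mt-Co3. They were -0.31 and -0.25 for mt-Cytb, -0.27 and -0.26 for mt-Atp6, and -0.26 and -0.29 for mt-Atp8. The intervals were wide: for mt-Atp6 the 95% interval ran from -0.66 to 0.11 in Foxp2hum/hum mice. The rRNAs differed by -0.28 (mt-Rnr1) and -0.35 (mt-Rnr2) in Foxp2hum/hum mice, and by -0.14 and -0.21 in wild-type mice, and did not pass.

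Relative to mt-Co1 in the same library, mt-Nd5 stood at 16.1% ± 1.55 in DMS of Foxp2hum/hum mice, against 18.9% ± 2.84 in their DLS (SD, n = 12 each). In wild-type mice it stood at 17.04% ± 2.35 in DMS, against 20.3% ± 3.20 in DLS (n = 11 each). The mean of mt-Nd6 relative to mt-Co1 in Foxp2hum/hum mice was 6.18% ± 0.562 for DMS, against 7.27% ± 0.782 for DLS, and in wild-type mice 6.67% ± 0.829 for DMS, against 7.80% ± 0.993 for DLS. The ratio of mt-Nd4 relative to mt-Co1 in Foxp2hum/hum mice was 46.6% ± 1.56 for DMS, against 46.9% ± 1.99 for DLS, and in wild-type mice 48.2% ± 3.02 for DMS, against 48.3% ± 2.67 for DLS. These ratios do not depend on the size factors and are given as a description, with no test.

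**Figure D3:**
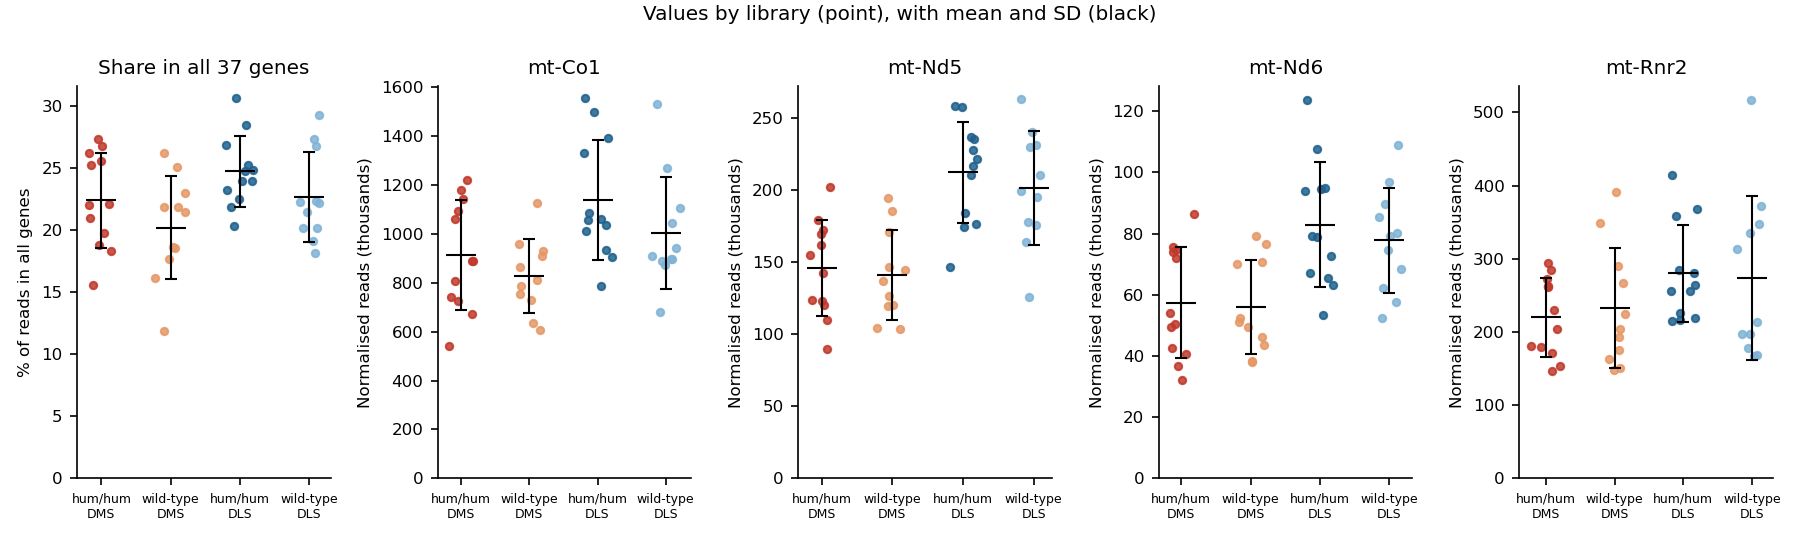
Share of reads in the 37 genes (%) and normalised reads (kreads) of mt-Co1, mt-Nd5, mt-Nd6 and mt-Rnr2, with 1 point per library and the mean and SD in black. Points of mt-Nd5 lie lower in DMS than in DLS in both genotypes, with medians of 148 against 219 in Foxp2hum/hum and 136 against 199 in wild-type mice, and the ranges overlap in every panel.

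Among the tRNA genes, mt-Tm (tRNA for methionine) and mt-Te (glutamate) fell in DMS in both genotypes. The mt-Tm gene had 1263 to 2694 normalised reads in Foxp2hum/hum DMS, against 2025 to 3341 in the DLS of these mice, and 1335 to 2785 in wild-type DMS and 1483 to 4014 in wild-type DLS. It fell by 0.55 ± 0.13 in Foxp2hum/hum (limma, adjusted p = 0.00145) and by 0.45 ± 0.14 in wild-type mice (limma, adjusted p = 0.0145). The mt-Te gene, which adjoins mt-Nd6 on the same strand, fell by 0.52 ± 0.16 in Foxp2hum/hum (limma, adjusted p = 0.0174) and by 0.49 ± 0.17 in wild-type mice (limma, adjusted p = 0.0352). The limit on strand given for mt-Nd6 holds for mt-Te too. The wild-type call of mt-Te was kept in 8 of 13 other settings (it was lost without libraries 70 and 72) and in 37 of 46 fits without 1 library. The others passed in 1 genotype each. In Foxp2hum/hum mice these were mt-Tf (phenylalanine, log2 -0.63), mt-Tv (valine, -0.66), mt-Tl1 (leucine, -0.50) and mt-Tg (glycine, -0.76). In wild-type mice they were mt-Td (aspartate, -0.73) and mt-Ty (tyrosine, -0.37). Of the 46 fits without 1 library, mt-Ty was called in 25, mt-Tg in 33, mt-Tv in 36, mt-Td in 45, and mt-Tf and mt-Tl1 in 46. The call of mt-Ty was kept in 5 of 13 other settings, and that of mt-Td was lost without libraries 70 and 72. The calls of mt-Tf, mt-Tv and mt-Tl1 were kept in 10 of 13, and lost under both scalings to totals and with Ttr as a covariate. That of mt-Tg was kept in 8 of 13, and the Foxp2hum/hum call of mt-Te in 9 of 13. The calls of mt-Tm were kept in 12 of 13 in each genotype, and lost with Ttr. The difference between genotypes in these effects is tested by the interaction given further on, which called none.

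**Figure D4:**
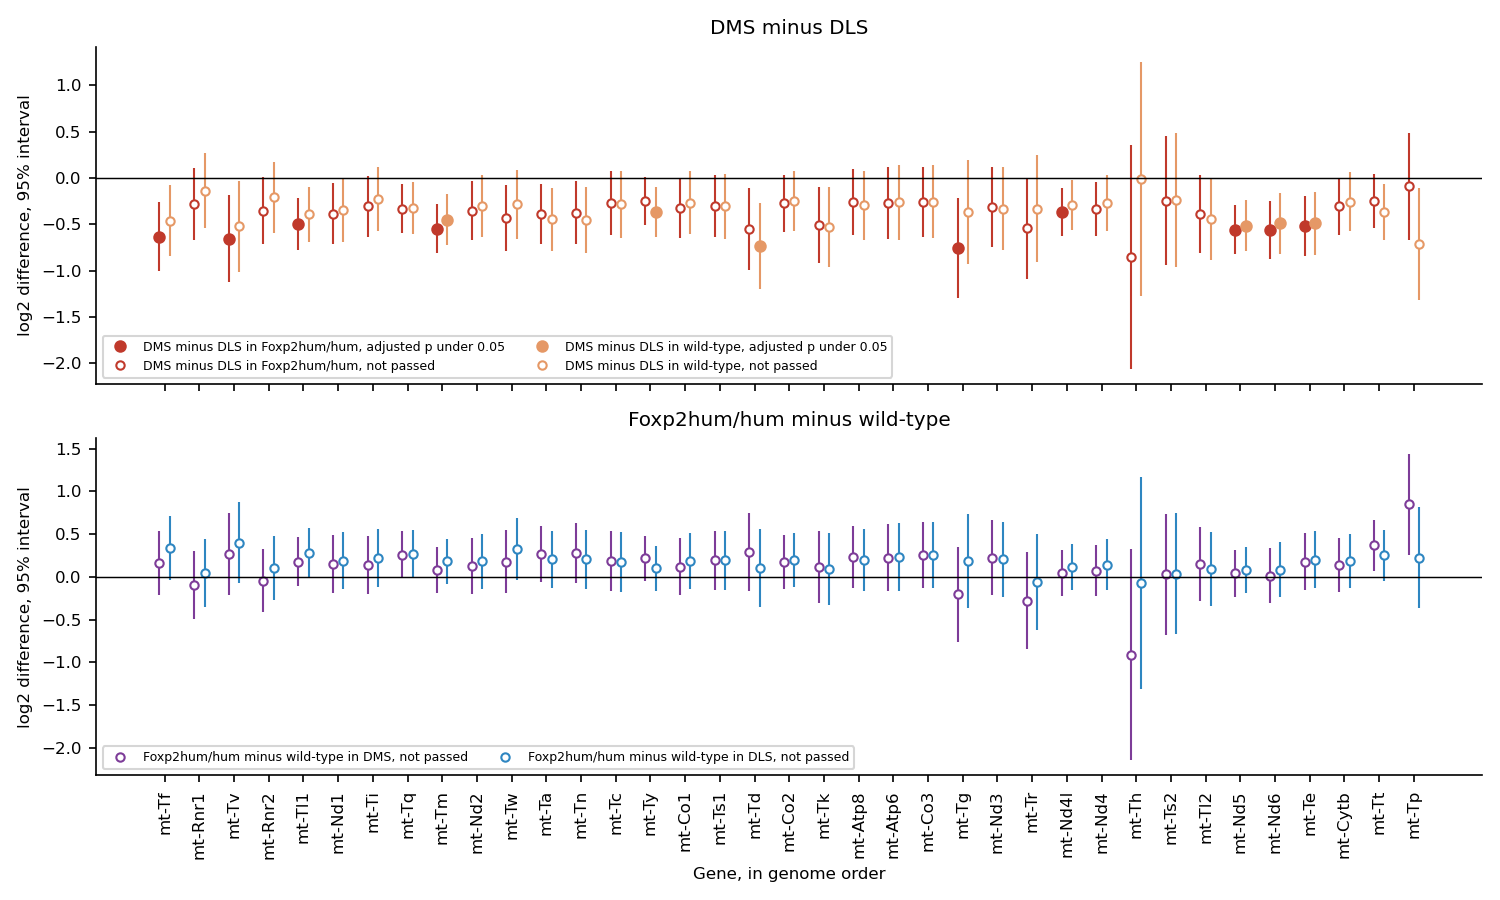
Log2 difference of each gene with its 95% interval, in genome order: above, DMS minus DLS, and below, Foxp2hum/hum minus wild-type (filled: adjusted p under 0.05 by limma). All points of the upper panel lie below 0, with mt-Nd5, mt-Nd6, mt-Te and mt-Tm filled in both genotypes, and no point of the lower panel is filled.

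The number of regional calls changed with the scale, and levels of some cell type markers differed between regions. Scaled to the total of all genes, 3 genes were called in Foxp2hum/hum (mt-Nd5, mt-Nd6 and mt-Tm) and 4 in wild-type mice (these and mt-Td), on a scale where the median of all genes moved to 0.19 in Foxp2hum/hum and 0.10 in wild-type mice. The shares of all genes lower in DMS were 8.82% and 8.72% in the main fit, and those on this scale are not given here. The summed level of 9 markers of striatal projection neurons was 88962 to 120618 normalised reads in Foxp2hum/hum DMS, against 136724 to 165411 in the DLS of these mice, and 97074 to 130545 in wild-type DMS and 141261 to 172942 in wild-type DLS, with no overlap between regions. None of these markers had a median of 0 in any group. The sum of 5 choroid plexus markers was 223 to 6726 in Foxp2hum/hum DMS, against 99.6 to 253 in the DLS of these mice, and 181 to 10527 in wild-type DMS and 116 to 330 in wild-type DLS, where Folr1 had a median of 0 in both DLS groups. The sum of 4 ependyma markers was 249 to 1050 and 53.1 to 141 in Foxp2hum/hum DMS and DLS, and 166 to 1150 and 36.3 to 91.9 in wild-type DMS and DLS, with Tmem212 at a median of 0 in both DLS groups and Ccdc153 in wild-type DLS. Sums of markers of cortical neurons, septum, astrocytes, oligodendrocytes, microglia and vessels overlapped between regions in both genotypes. Astrocyte medians were 4585 in Foxp2hum/hum DMS against 3904 in their DLS, and 4576 in wild-type DMS against 3860 in wild-type DLS. With the level of Ttr, a choroid plexus marker, as a covariate, mt-Nd5 alone was called in Foxp2hum/hum and mt-Nd5 and mt-Td in wild-type mice. All 37 differences stayed below 0 in that fit, with an mRNA median of -0.29 in Foxp2hum/hum and -0.25 in wild-type mice. The part of the neuronal markers in the result was not tested, and in bulk tissue fewer cells of a type and less RNA per cell cannot be told apart. Without libraries 70 and 72, which are wild-type, the wild-type count was 4, of which 3 were among the 6.

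The nuclear genes of the respiratory chain had the same sign more often than not, with 74 of 87 tested lower in DMS in each genotype, where 47.39% of all genes tested were lower in Foxp2hum/hum and 49.03% in wild-type mice. The median log2 difference over these 87 was -0.12 in Foxp2hum/hum and -0.08 in wild-type mice. By limma, 5 fell and 1 rose in Foxp2hum/hum DMS, and 3 fell in wild-type DMS, numbers to be read against the 8.82% and 8.72% of all genes that were lower. Of complex I, Ndufs1, a subunit of its peripheral arm, fell in Foxp2hum/hum mice (-0.33, limma, adjusted p = 0.005), and none of 38 passed in wild-type mice. Of complex IV, Cox6a1 fell (-0.44) and Cox6b2, known as a testis isoform, rose (1.69) in Foxp2hum/hum mice. In wild-type mice Cox6b2 had 0.82 (limma, adjusted p = 0.0826), and its interaction did not pass (limma, adjusted p = 1). Atp5b, the catalytic subunit of ATP synthase, fell in both (-0.29 in Foxp2hum/hum, -0.26 in wild-type), and so did Cycs, cytochrome c (-0.42 and -0.45). The third wild-type gene was Atp5sl (-0.23), which shares the Atp5 symbol. None of 9 genes of complex III and none of 4 of complex II passed in either genotype.

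Genes that act in transcription of the mitochondrial genome and in processing of its RNA were read beside them, with 34 of the list's 36 symbols in the table. In Foxp2hum/hum DMS 5 fell and 2 rose, and in wild-type DMS 6 fell and 1 rose. Over all genes 8.82% were lower and 9.33% higher in Foxp2hum/hum DMS, and 8.72% lower and 8.54% higher in wild-type DMS. Esrra, a nuclear receptor that drives genes of oxidative metabolism, fell by 0.50 in Foxp2hum/hum (limma, adjusted p = 5.11e-06) and by 0.52 in wild-type mice (limma, adjusted p = 5.2e-06). Ppargc1a, its coactivator, fell by 0.73 and 0.52. Tfb2m, a transcription factor of the mitochondrial RNA polymerase, fell by 0.37 and 0.43, and Fastk by 0.31 and 0.25. Nrf1, an activator of nuclear genes for mitochondrial proteins, rose by 0.34 in Foxp2hum/hum and by 0.50 in wild-type mice. The median over the 34 genes was -0.03 in Foxp2hum/hum and -0.07 in wild-type mice.

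The second comparison set Foxp2hum/hum against wild-type mice within each region. None of the 37 genes passed in DMS and none in DLS by limma, and the share called over all genes was 0% in both regions. At an unadjusted p under 0.05, 2 of the 37 and 700 of all genes were counted in DMS, and 0 of the 37 and 843 of all genes in DLS. On the log2 scale all 13 mRNAs were above 0 in both regions on the deposited scale. In DMS mt-Nd6 was below 0 with array weights, and mt-Nd6, mt-Nd5 and mt-Nd4l were in some fits without 1 library. In DLS mt-Co1 and mt-Nd4 were below 0 with quantile normalisation. Their median was 0.14 (0.02 to 0.25) in DMS and 0.19 (0.08 to 0.25) in DLS. The genotype contrasts in the 2 regions have no libraries in common, but their libraries may share animals, so they are not known to be independent.

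By complex, the differences of Foxp2hum/hum from wild-type in DMS and in DLS were 0.12 and 0.18 for mt-Co1, 0.17 and 0.20 for mt-Co2, and 0.25 and 0.25 for mt-Co3. They were 0.23 and 0.23 for mt-Atp6, 0.23 and 0.20 for mt-Atp8, and 0.14 and 0.19 for mt-Cytb. For complex I they were 0.15 and 0.19 (mt-Nd1), 0.13 and 0.18 (mt-Nd2), 0.22 and 0.20 (mt-Nd3), 0.07 and 0.14 (mt-Nd4), 0.04 and 0.12 (mt-Nd4l), 0.04 and 0.08 (mt-Nd5), and 0.02 and 0.08 (mt-Nd6). The widest 95% limits over the 13 mRNAs were -0.31 and 0.66 in DMS and -0.24 and 0.64 in DLS. A p above the threshold does not show that the genotypes had equal levels.

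The mt-Co1 gene ran from 540 to 1222 kreads with a median of 891 in Foxp2hum/hum DMS, and from 609 to 1129 with a median of 812 in wild-type DMS. It ran from 787 to 1555 kreads with a median of 1060 in Foxp2hum/hum DLS, and from 682 to 1531 with a median of 909 in wild-type DLS. The ranges of the genotypes overlapped over most of their length. A permutation test of the difference of means, two-sided with 100000 resamples, gave p = 0.38 in DMS and p = 0.169 in DLS for mt-Co1. It gave p = 0.929 in DMS and p = 0.555 in DLS for mt-Nd6 in the same permutation test.

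The rRNAs did not pass either. In DMS mt-Rnr2 had 147 to 295 kreads in Foxp2hum/hum and 147 to 391 in wild-type libraries, and in DLS 215 to 415 in Foxp2hum/hum and 167 to 517 in wild-type libraries. The highest values were library 72 in wild-type DMS and library 43 in wild-type DLS. The log2 differences of Foxp2hum/hum from wild-type in DMS and in DLS were -0.04 and 0.10 for mt-Rnr2 and -0.10 and 0.05 for mt-Rnr1. Without libraries 70 and 72 both were 0.04 in DMS. The permutation test gave p = 0.811 (DMS) and p = 0.594 (DLS) for mt-Rnr2, and p = 0.651 and p = 0.818 for mt-Rnr1.

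The tRNA genes with the smallest p in DMS were mt-Tp and mt-Tt, for proline and threonine. The mt-Tp gene had 272 to 1814 normalised reads with a median of 504 in Foxp2hum/hum DMS, and 123 to 653 with a median of 378 in wild-type DMS, a log2 difference of 0.85 ± 0.29 (limma, adjusted p = 0.955). The difference of mt-Tt was 0.37 ± 0.15 (limma, adjusted p = 0.955). In DLS the smallest p were those of mt-Tq, for glutamine (0.27 ± 0.14), and mt-Tl1 (0.28 ± 0.14), both with adjusted p = 0.843 by limma.

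Nuclear respiratory chain genes were above 0 in 82 of 87 in DMS and 84 of 87 in DLS, with medians of 0.11 and 0.15, and none passed. Over all genes tested, 9803 of 19561 were above 0 in DMS and 9399 in DLS. The examples with the smallest p were Ndufa5 (0.22) and Ndufs4 (0.19) for complex I in DMS, and Ndufb5 (0.19) and Ndufa12 (0.16) in DLS. Uqcrb of complex III had 0.27 in DMS and Uqcrc2 0.14 in DLS. Cox7b of complex IV had 0.30 in DMS and 0.33 in DLS, and Atp5f1 of complex V had 0.19 in DMS. The list for transcription and RNA processing had 23 of 34 above 0 in DMS and 19 of 34 in DLS, with medians of 0.05 and 0.03, and none passed. Its smallest p in DMS were those of Mterfd1 (0.28) and Pnpt1 (0.30), and in DLS those of Hsd17b10 (0.28) and Elac2 (-0.17).

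The interaction asked whether the DMS minus DLS difference was another one in Foxp2hum/hum than in wild-type mice. None of the 37 genes passed by limma, the share called over all genes was 0%, and at an unadjusted p under 0.05 it counted 0 of the 37 and 321 of all genes. The interaction of the mRNAs ran from -0.08 to 0.03 on the log2 scale, with a median of -0.04, and scaled to the total of all genes all 13 lay above 0 with a median of 0.03, beside a median of 0.08 over all genes tested. All 13 lay below 0 with array weights and without libraries 70 and 72. The widest 95% limits over the 13 mRNAs were those of mt-Nd3, from -0.60 to 0.64. For every mRNA other than mt-Nd5 and mt-Nd6, the lower limit lay beyond the regional difference of that gene in both genotypes. For mt-Nd5 the interval ran from -0.43 to 0.34, short of its regional differences of -0.56 (Foxp2hum/hum) and -0.52 (wild-type). For mt-Nd6 it ran from -0.53 to 0.39, beside regional differences of -0.56 and -0.49 in that order. Both rRNAs had -0.14. The tRNA genes with the smallest p were mt-Tp (0.62 ± 0.42) and mt-Tg (-0.39 ± 0.39), both with adjusted p = 1 by limma.

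Across the 46 libraries, 1 pair of mRNAs was tested, mt-Co1 and mt-Nd6, which are encoded on opposite strands. Their log2 levels had Pearson's r = 0.92 and Spearman's rho = 0.89, each with a permutation p of 1e-05, the smallest that 100000 resamples can give, and an adjusted p of 1.33e-05 over the 4 pairs computed. Without the 2 libraries farthest from the median of mt-Co1, r was 0.90. Within groups r was 0.98 for Foxp2hum/hum DMS, 0.93 in wild-type DMS, 0.91 in Foxp2hum/hum DLS and 0.83 in wild-type DLS. The pair shares library, size factor and, in part, precursors. Strand assignment of the reads is not known, so reads in either gene may come from RNA of both strands. The correlation therefore does not show that the products of the 2 strands were measured apart.

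The rRNAs were set against each other and against mt-Co1. For mt-Rnr1 and mt-Rnr2, r was 0.92 and rho 0.94 (permutation p = 1e-05 for each, adjusted p = 1.33e-05), r was 0.91 without the 2 libraries farthest from the median, and within groups r ran from 0.67 to 0.98. For mt-Co1 and mt-Rnr2, r was 0.63 and rho 0.66 (permutation p = 1e-05 for each, adjusted p = 1.33e-05), and r was 0.57 without the 2 farthest libraries. Within groups, r of mt-Co1 and mt-Rnr2 was 0.87 in Foxp2hum/hum DMS, 0.31 in wild-type DMS, 0.53 in Foxp2hum/hum DLS and 0.66 in wild-type DLS. The permutation p within groups was 0.00042, 0.355, 0.0772 and 0.0239 in that order, so the relation did not hold in each group. The level of mt-Co1 was also set against the recovered reads in all non-mitochondrial genes, before division by size factors. For this pair r was -0.17 (permutation p = 0.245) and rho -0.10 (permutation p = 0.524), and r was -0.20 without the 2 farthest libraries. Size factors take differences of depth out of mt-Co1, so this pair cannot serve as a control for the others.

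As a ratio, mt-Rnr2 stood at 24.3% of mt-Co1 in Foxp2hum/hum DMS, 28.4% in wild-type DMS, 25.02% in Foxp2hum/hum DLS and 27.1% in wild-type DLS (SD 3.15, 10.1, 5.12 and 8.87). Its highest value, 49.6%, was in library 72. The ratio of mt-Rnr1 to mt-Rnr2 had a median of 65.9% over the 46 libraries and ran from 37.3% in library 94 to 96.0% in library 72.

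The tRNA genes spanned a wide range of levels. Their mean levels ran from 61.4 normalised reads for mt-Ts2 (serine) through 134 for mt-Tv and 184 for mt-Tl2 (leucine), the lowest, to 4208 for mt-Tl1, 8001 for mt-Te and 43419 for mt-Ts1 (serine), the highest. Per kb mt-Ts1 had 629 kreads, beside 630 for mt-Co1, whose last 3 bases it overlaps from the opposite strand. Likewise mt-Te had 116 kreads per kb, beside 132 for the adjoining mt-Nd6. No source used here says whether reads were assigned by strand, so reads of mt-Co1 and mt-Ts1 cannot be told apart at their junction, shown here on the plus strand of chromosome M, 6858 to 6938, with the bases in both genes in capitals.
mt-Co1 and mt-Ts1: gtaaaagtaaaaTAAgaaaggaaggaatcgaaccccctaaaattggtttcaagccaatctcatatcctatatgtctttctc
The capitals spell TAA, the stop codon of mt-Co1, and mt-Ts1 covers them and all bases after them, as the complement and with its 3′ end first.

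Some tRNA genes had libraries far above their median, in part the same ones. The level of mt-Th (histidine) had a median of 127 normalised reads and reached 3950 in library 70, 2369 in library 61, 1735 in library 76, 1674 in library 86 and 1385 in library 74. These 5 libraries were also the 5 highest for mt-Tr (arginine), with 1811 to 4624 normalised reads against a median of 837. Of the 5, 4 were among the 5 highest for mt-Tg, which had 5498 normalised reads in library 61 and 5478 in library 70 against a median of 1755. The highest mt-Tg, 7141, was in library 92, where mt-Th had 174. They come from 3 groups, namely wild-type DMS (library 76), Foxp2hum/hum DLS (61 and 74) and wild-type DLS (70 and 86). The highest Foxp2hum/hum DMS library for mt-Th had 1043.

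Another pair, mt-Ts2 and mt-Tl2, was highest in libraries 84 and 72. The mt-Ts2 gene had 409 and 269 normalised reads there against a median of 45.02, and mt-Tl2 had 505 and 406 against a median of 176. In the 17 other tRNA genes, the highest library was 1.63 to 4.09 times the median, where it was 31.1 times for mt-Th, 9.08 for mt-Ts2, 5.52 for mt-Tr, 4.07 for mt-Tg and 2.87 for mt-Tl2. In the library where each had fewest, mt-Ts2 had 14 recovered reads and mt-Th 57.

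These 5 genes are shown as encoded, 5′ to 3′, since mt-Tg, mt-Tr and mt-Th lie apart on the genome while mt-Th, mt-Ts2 and mt-Tl2 adjoin. All lie on the plus strand of chromosome M: mt-Tg at 9391 to 9458, mt-Tr at 9808 to 9875, mt-Th at 11546 to 11612, mt-Ts2 at 11613 to 11671 and mt-Tl2 at 11671 to 11741. Capitals mark the anticodon.
mt-Tg: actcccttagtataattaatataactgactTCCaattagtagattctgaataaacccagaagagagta
mt-Tr: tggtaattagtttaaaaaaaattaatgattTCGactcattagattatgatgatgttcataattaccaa
mt-Th: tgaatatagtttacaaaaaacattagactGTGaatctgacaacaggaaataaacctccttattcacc
mt-Ts2: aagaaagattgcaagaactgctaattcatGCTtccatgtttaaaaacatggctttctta
mt-Tl2: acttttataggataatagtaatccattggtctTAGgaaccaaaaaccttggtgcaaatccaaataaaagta
The genes mt-Th and mt-Ts2 follow each other with no base between them, and none of their 5 highest libraries were shared. In the libraries highest for mt-Ts2, mt-Th was also above its median of 127, with 426 in library 84 and 300 in library 72. The genes mt-Tr and mt-Tg, which flank mt-Nd3, were high with mt-Th. A run of 129 bases identical to 11514 to 11642 of chromosome M, which holds the whole of mt-Th, lies on chromosome 2 (69193595 to 69193723), and reads of mt-Th and of that copy cannot be told apart.

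**Figure D5:**
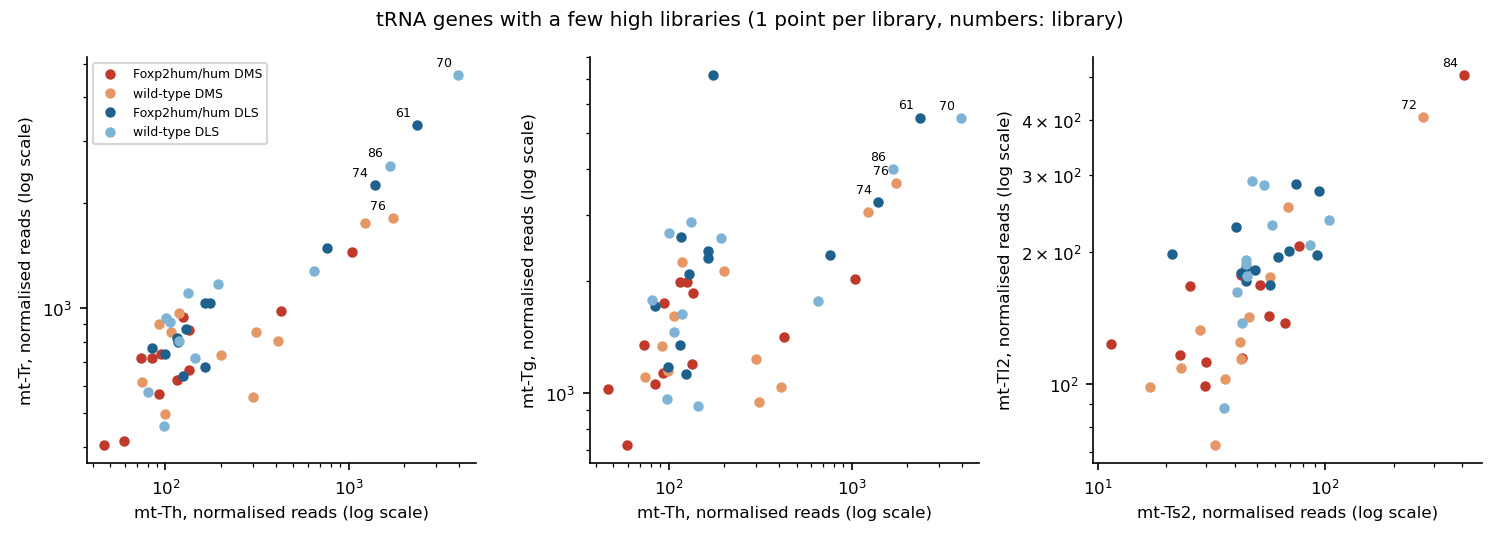
Normalised reads of mt-Tr and mt-Tg against mt-Th, and of mt-Tl2 against mt-Ts2 (log scales), with 1 point per library coloured by group and library numbers at the highest. Libraries 70, 61, 76, 86 and 74 lie at the upper right for mt-Th and mt-Tr, and libraries 84 and 72 for mt-Ts2 and mt-Tl2.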

How the data were processed

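The deposited table holds 1 signal value for each gene in each library, normalised with DESeq size factors, as its values and the submitters' processing notes show. Those notes also name mm9, TopHat 1.4.1 and bedtools. RNA input was 15 ng per sample. Dividing a library by its smallest non-zero value gave whole reads for 100% of values (tolerance 0.01). The 46 libraries were assigned by the table's header.

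Genes with a mean of at least 10 (19561, all 37 members among them) were fitted on log2(value + 1) with limma 3.58.1 (R 4.3.3): 4 group means, trend, two-sided tests. That unit is not a raw count, so edgeR 4.0.16 (TMM) and DESeq2 1.42.0 on recovered reads were alternatives, beside other pseudocounts, filters, scalings, weights, a Ttr covariate and leaving out libraries. Leaving out libraries 70 and 72 together was added after seeing the data. The members and lists were chosen with earlier results of these data known. All mRNAs and rRNAs are named, tRNAs that passed (otherwise the 2 of smallest p), the 3 highest and 3 lowest tRNAs, and of nuclear lists up to 4 that passed (otherwise 2 of smallest p). Counts of 5 or fewer outside this rule are named after their values were seen. Nuclear lists follow symbol starts, so Cox4nb, Atp5s, Atp5sl and Atp5l-ps1 are in them without all being subunits. The procedure was tested on simulated data. Copies were searched with BLAST+ 2.17.0, and sequences and positions are from NCBIM37 and GENCODE M1. Intervals are limma's and cover the spread between libraries. The values of 1 nuclear gene that the naming rule covers are not reported here.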

Additional observations from a re-analysis of the deposited data

How the results depend on the processing

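The number of the 37 genes called lower in DMS was 9 in Foxp2hum/hum mice. It was 3 scaled to the total of all genes, 3 scaled to the total of the non-mitochondrial genes, 4 with quantile normalisation and 1 with Ttr as a covariate. In wild-type mice it was 6, against 10 by DESeq2, 3 scaled to that total, 2 with quantile normalisation and 2 with Ttr. Leaving out 1 library gave 6 to 11 in Foxp2hum/hum and 3 to 10 in wild-type mice. It was 3 without library 51, 58, 18, 24, 56 or 76 (of which 2 were among the 6 without library 76), 4 without 43, 9 without 89 or 65 and 10 without 50. Over all 19561 genes, 2279 were called in either direction in Foxp2hum/hum with Ttr as a covariate, and 2197 in wild-type mice scaled to that total. In the main fit 8.82% of all genes were lower in DMS in Foxp2hum/hum and 8.72% in wild-type mice. The shares lower in DMS in the other settings are not given here, so the counts in those settings cannot be set against genes in general. For genotype in DLS, where limma called 0 of all genes tested, DESeq2 called 3, array weights called 1, and leaving out 1 library gave 0 to 1. None of these was among the 37 genes. For genotype in DMS or in DLS, and for the interaction, no setting called any of the 37 genes.

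Some differences that did not pass changed sign. For Foxp2hum/hum minus wild-type in DMS these were mt-Rnr1 (0.0067 with array weights, 0.039 without libraries 70 and 72), mt-Rnr2 (0.030 scaled to the non-mitochondrial total, 0.041 with array weights, 0.041 without 70 and 72) and mt-Nd6 (-0.036 with array weights). With 1 library left out, mt-Rnr1 ran from -0.15 to 0.039, mt-Rnr2 from -0.10 to 0.041, mt-Nd6 from -0.044 to 0.086, mt-Nd4l from -0.0025 to 0.11 and mt-Nd5 from -0.0040 to 0.10. In DLS mt-Rnr1 had -0.052 by edgeR and -0.054 by DESeq2 and ran from -0.059 to 0.15 with 1 library left out, and with quantile normalisation mt-Rnr2 had -0.13, mt-Co1 -0.10 and mt-Nd4 -0.016. For DMS minus DLS with quantile normalisation, Foxp2hum/hum mice had 0.039 for mt-Rnr1, 0.065 for mt-Rnr2, 0.019 for mt-Co2, 0.036 for mt-Atp8, 0.075 for mt-Co3 and 0.055 for mt-Nd3, and wild-type mice had 0.14 for mt-Rnr1. The cause of these changes was not tested. No paired analysis was possible because the labels give no replicate numbers that groups share.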
